A study of Mus musculus with 12 samples.

Results

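The results below concern the triple drug combination against its vehicle, chosen by the titles of the libraries: the 2 Combo and the 2 Vehicle libraries of day 2, or 4 of the 12 ATAC-seq libraries of the series, with the authors' deposited table for that contrast. ATAC-seq maps open chromatin by where the Tn5 transposase can insert into DNA. The cells were granulocyte-monocyte progenitors from bone marrow of C57BL6 mice that carry ER-HOXA9, and all of them, Vehicle included, grew with 0.5 micromolar beta-estradiol and with stem cell factor in the medium. Vehicle received DMSO, and Combo received 200 nM GSK-LSD1, 5 uM mercaptopurine and 5 uM cerulenin together for 2 days. Each group held 2 biological replicates. The LSD1i, 6MP and CER groups, which received each drug alone at the same dose for the same time, and the untreated Day0 group are used only to place the combination. No pairwise combination was analysed here, so the share of each drug in a difference cannot be told apart, and the animals, clones and sex behind the cultures are not given in the sources used here.

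LSD1, encoded by Kdm1a, is a histone demethylase that removes methyl groups from lysine 4 of histone H3. It works with CoREST proteins and is brought to enhancers of myeloid genes by the repressors GFI1 and GFI1B. Mercaptopurine is a purine analogue that HPRT turns into nucleotides that interfere with purine synthesis and enter DNA. Cerulenin inhibits fatty acid synthase, encoded by Fasn. HOXA9 is a homeobox transcription factor of haematopoietic progenitors, and its estrogen receptor fusion holds myeloid progenitors in an immature state while estradiol is present. The study set such epigenetic and metabolic inhibitors against that block.

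The promoters with the largest opening and the largest closing show what the measurement rests on, and their sequences are given here from RefSeq (GRCm38.p6, the mm10 assembly), 5′ to 3′ on the strand of the gene, from 250 bases before to 50 bases after the start site. Capitals mark every match, on either strand, to one of 12 motifs, and positions count from 1 at the 5′ end. The repressor GFI1 has the core AATCNC. The letters GAGGAAGT were taken for PU.1 and CCGGAAGT for other ETS factors. For C/EBP factors the letters were TTGCNNAA, searched on both strands. For the AP-1 family, which pairs FOS with JUN proteins, the motif was TGANTCA. For the RUNX factors of blood stem cells it was TGTGGTT. Interferon regulatory factors (IRF) were searched as GAANTGAAA and HOXA9 with its partner PBX as ATGATTTA. The GATA factors of erythroid and mast cells were searched as AGATAA. The housekeeping factor NRF1 has GCGCATGCG, and CREB-family proteins have the CRE, TGACGTCA. The E-box that MYC binds was written as CACGTG. The PU.1 and ETS cores share the letters GGAAGT. The promoters of Mgst1, Tarm1 and Mmp8 opened the most of the promoters tested, and those of Rnase11 and the lncRNA gene Gm29933 closed the most. This choice was made with their values known.
Mgst1 (chr6:138140277-138140576, plus strand): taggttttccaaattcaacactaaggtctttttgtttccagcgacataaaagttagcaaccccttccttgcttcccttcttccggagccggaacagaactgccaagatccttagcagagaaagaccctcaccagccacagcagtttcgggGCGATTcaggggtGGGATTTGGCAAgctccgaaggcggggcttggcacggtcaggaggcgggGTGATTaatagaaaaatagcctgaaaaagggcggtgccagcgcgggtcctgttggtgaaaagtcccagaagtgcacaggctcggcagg
Tarm1 (chr7:3502575-3502874, minus strand): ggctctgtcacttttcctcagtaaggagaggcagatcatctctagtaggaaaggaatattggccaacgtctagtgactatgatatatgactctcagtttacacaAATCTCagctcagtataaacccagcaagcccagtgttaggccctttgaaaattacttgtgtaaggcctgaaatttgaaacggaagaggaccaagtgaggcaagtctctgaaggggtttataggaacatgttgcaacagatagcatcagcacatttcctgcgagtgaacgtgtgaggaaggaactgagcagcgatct
Mmp8 (chr9:7558179-7558478, plus strand): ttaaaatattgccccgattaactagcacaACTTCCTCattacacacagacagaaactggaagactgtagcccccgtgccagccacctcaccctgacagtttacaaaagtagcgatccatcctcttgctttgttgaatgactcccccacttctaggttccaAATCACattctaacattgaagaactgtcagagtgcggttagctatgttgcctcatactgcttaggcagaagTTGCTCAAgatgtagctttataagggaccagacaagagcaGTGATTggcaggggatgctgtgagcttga
Rnase11 (chr14:51050114-51050413, minus strand): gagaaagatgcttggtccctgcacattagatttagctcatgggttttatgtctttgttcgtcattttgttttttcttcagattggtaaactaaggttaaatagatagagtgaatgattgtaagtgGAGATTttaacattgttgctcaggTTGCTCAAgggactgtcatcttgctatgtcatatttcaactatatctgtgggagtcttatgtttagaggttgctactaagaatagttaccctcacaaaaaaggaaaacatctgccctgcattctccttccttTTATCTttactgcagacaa
Gm29933 (chr11:95808555-95808854, minus strand): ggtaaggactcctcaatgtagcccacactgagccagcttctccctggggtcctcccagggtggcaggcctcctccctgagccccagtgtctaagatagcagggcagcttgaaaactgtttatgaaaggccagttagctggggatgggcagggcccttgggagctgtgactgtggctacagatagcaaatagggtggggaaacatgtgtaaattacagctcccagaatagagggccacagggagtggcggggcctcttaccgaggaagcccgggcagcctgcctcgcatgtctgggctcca
The Mgst1 window held the GFI1 core at positions 151, 164 and 213 and the C/EBP letters at 168, which overlaps the second of these cores. The Tarm1 window held 1 GFI1 core, at 105. The Mmp8 window held the PU.1 core at 30, the GFI1 core at 161 and 272 and the C/EBP letters at 232. The Rnase11 window held the GFI1 core at 126, the C/EBP letters at 150 and GATA at 282, and the Gm29933 window held none of the 12 motifs. A second Mgst1 promoter in the same opened region (chr6:138141337-138141636, plus strand) also held none.

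The Combo libraries held more peaks than the Vehicle libraries, without overlap. Combo replicates 1 and 2 held 55713 and 55630 peaks over 48.0 and 49.4 Mb, and Vehicle replicates 1 and 2 held 51721 and 53839 over 46.2 and 46.4 Mb. With 2 libraries against 2, the exact two-sided permutation p was 0.333 for both measures, the smallest that this design can give. The background of the libraries, taken as their depth, was 3.84 to 4.45 fragments per position, and their median summit pileup was 66 to 75 fragments. Read totals are not in the files, and the pileups carry counting error that limits weak regions. Median summit signal was 35.9 and 42.7 times background in Combo and 33.1 and 34.1 times in Vehicle. Base pairs covered by both libraries over either (the Jaccard index) came to 0.771 within Combo, 0.747 within Vehicle and 0.716 to 0.727 between them. Promoters of myeloid transcription factor genes carried a peak in both groups at 20 of 20 genes with a promoter in the RefSeq table, and those of primary granule genes at 7 of 10 in Vehicle and 6 of 10 in Combo. Peaks were present at fewer promoters of T and NK cell markers, 3 of 14 in Vehicle and 4 of 14 in Combo, and of stromal and endothelial markers, 1 of 8 in each. Mature neutrophil promoters carried a peak at only 8 of 21 in each group, and B cell promoters at 5 of 8 in each. Erythroid promoters carried one at 5 of 10 in Vehicle and 4 of 10 in Combo. These counts thus did not separate myeloid from other lists, and the share over all promoters was not counted. The RefSeq table held promoters of 305 of the 395 listed genes, so the counts describe those genes only. One name suffix, R, is carried by Vehicle replicate 1 and Combo replicate 2, so it is balanced between the groups, and what it stands for is not given in the sources used here.

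The combination opened more regions than it closed, except in a fit with a block for the name suffix. Each region was measured by its summit signal, the log2 of the fragment pileup at its strongest summit over the library's background, centred on the median of regions called in all 12 libraries. Of 42679 regions with a peak in all 4 libraries, limma called 2119 opened (4.96%) and 1326 closed (3.11%) in Combo at an adjusted p of 0.05 or less, or 8.07% in either direction, and 8908 had an unadjusted p under 0.05. Opened regions differed by a median of 0.94 on the log2 scale and closed ones by -0.71, while the median over all tested regions was -0.09. An absolute difference of 1 or more was reached by 908 opened and 214 closed regions. Between replicates, the median absolute difference was 0.15 in Combo and 0.20 in Vehicle, against 0.22 between the group means.

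**Figure D1:**
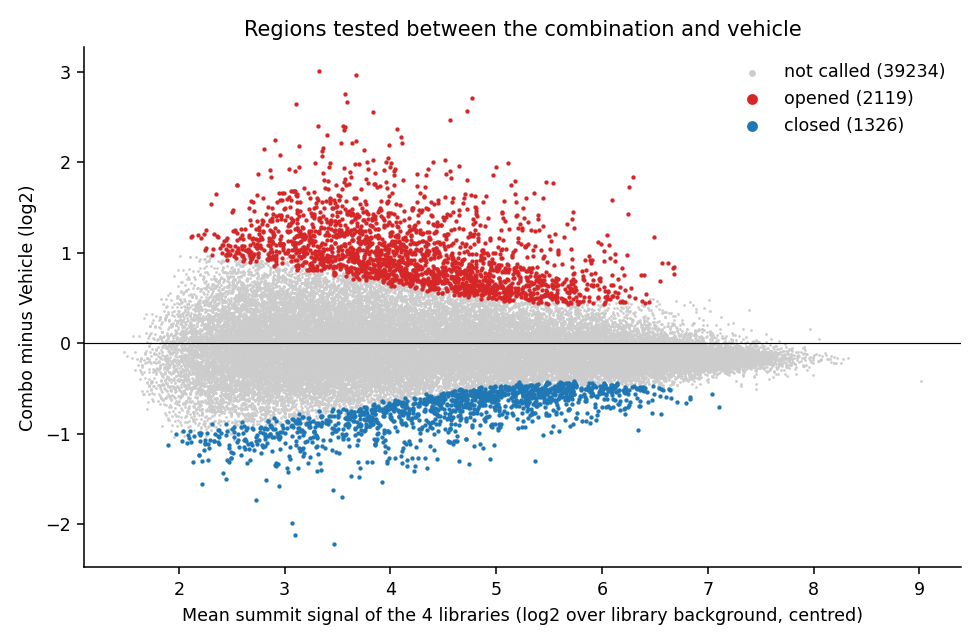
Difference in summit signal between Combo and Vehicle (log2, vertical axis) against the mean summit signal of the 4 libraries (log2 over library background, centred, horizontal axis) for 42679 regions. Each point is 1 region: 2119 opened regions are red, 1326 closed ones blue and the rest grey. Opened regions reach 3.01 and closed ones -2.21, and the strongest regions lie slightly below 0.

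The balance of the calls depended on the scaling. Relative to depth, the median of common regions lay 0.22 higher in Combo than in Vehicle, and the values here are relative to that shift. Scaling by depth alone gave 1200 opened and 35 closed regions, or 97.2% opened in place of 61.5%, and centring by intensity gave 2842 and 1171, or 70.8%. With a block for the name suffix, 4183 opened and 6065 closed, or 40.8% opened. All 2119 opened and 1326 closed regions were called again in the same direction under this block. Measured over the local background of each peak, 113 regions opened and 14 closed. The opened and closed counts were 995 and 503 without Combo replicate 1, 998 and 441 without Combo replicate 2, 1331 and 778 without Vehicle replicate 1, and 1830 and 926 without Vehicle replicate 2. A bulk measurement cannot tell a change in each cell from a change in the share of cells of a type, and this holds for every region named below.

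The authors' deposited table for this contrast leaned further towards opening. It listed 6813 opened regions (12.8% of about 53239 tests) whose median log2 fold was +0.98, and 1142 closed ones (2.15%), whose median was -0.78, at an FDR of 0.05 or less. The number of tests was counted from the ranks of its p-values. Limma tested 4181 of these opened regions and 712 of the closed ones, since it needs a peak in all 4 libraries. It called 2066 and 537 of them in the same direction and 0 in the opposite one. Of the opened regions in the authors' deposited table, 1760 had peaks in both Combo and no Vehicle library, so the summit signal gave them no fold.

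Opened and closed regions lay less often within 1 kb of a start site in the RefSeq table used than all tested regions did. Within 1 kb of a RefSeq start site lay 5.67% of opened and 8.47% of closed regions, against 22.99% of all regions tested. Opened regions had a median distance of 23.5 kb, closed ones 12.7 kb and all tested ones 12.1 kb. Between 10 and 100 kb lay 59.6% of opened, 52.9% of closed and 46.9% of all regions. In the authors' deposited table, 37.3% of opened regions were intergenic, 35.1% intronic and 21.2% at promoters, and of the closed ones 23.1%, 34.2% and 30.1%. Regions on chromosome 18 have no start sites in the table used and are left out of the distances. Start sites of other genes are missing from it too, since it held promoters of 305 of the 395 listed genes. Distances are thus upper limits, and the shares within 1 kb are lower limits. Whether the gaps fell evenly on opened, closed and all tested regions was not tested.

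**Figure D2:**
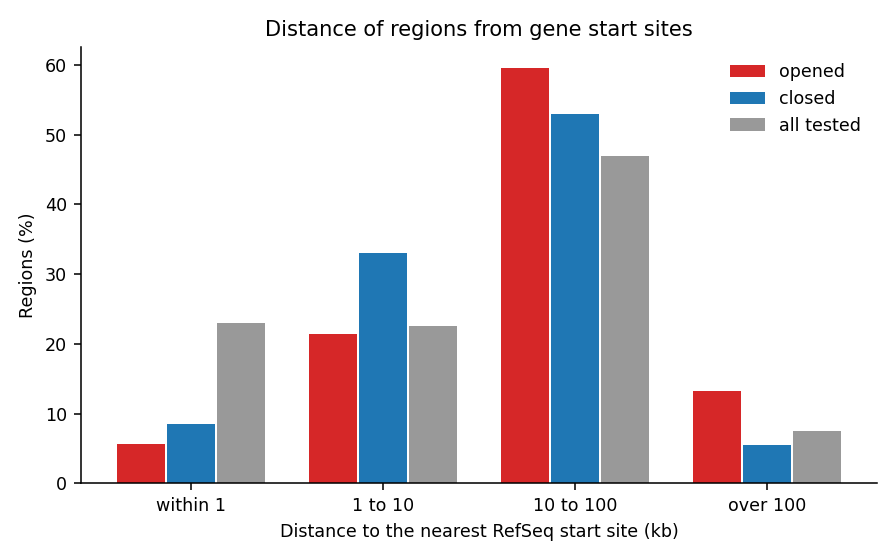
Share of regions (%, vertical axis) by distance to the nearest RefSeq start site (kb, horizontal axis) for opened regions (red), closed regions (blue) and all regions tested (grey). Start sites of some genes are missing, so the distances are upper limits. Within 1 kb the bars stand at 5.67%, 8.47% and 22.99%, and from 10 to 100 kb at 59.6%, 52.9% and 46.9%.

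Gene groups are described by their nearest regions, beside 4.96% opened and 3.11% closed over all tested regions. A region counts for the nearest protein-coding gene, at any distance, and 1721 opened (4.41%) and 1250 closed (3.2%) of 39058 regions remain within 50 kb. In brackets stand the counts within 50 kb, with depth scaling, and their range with 1 library left out. With depth scaling no region of any list was called closed, so the falls named for the lists rest on the centring. Of these falls, the regions of Plac8, Fos, Slc29a1, Itgb3 and Cd3e are not listed in the authors' deposited table for this contrast. Over the local background of each peak, at most 1 region of any list opened and at most 1 closed, and none opened in the neutrophil, monocyte, dendritic, primary granule and LSD1 complex lists. Differences are Combo minus Vehicle on the log2 summit signal, with SE and n = 2 libraries per group throughout. Gene counts from the authors' deposited table stand beside its 6813 opened and 1142 closed regions. That lean favours opened genes on any list, and the share over all genes was not counted.

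Markers of mature neutrophils had 9 opened and 1 closed of 47 tested regions (9 and 0 of 41 within 50 kb, 6 and 0 with depth scaling and 6 to 7 and 1 to 2 with 1 library left out), or 19.1% opened. The opened regions belonged to 6 of 22 genes. By its own gene symbols, the authors' deposited table listed opened regions for 11 genes and closed ones for 0. Mmp8, the neutrophil collagenase, had the most strongly opened promoter of these (chromosome 9, 7556429 to 7558986). Its summit signal was 4.26 and 4.32 in Vehicle, 6.21 and 5.94 in Combo and 5.68 and 5.75 in LSD1i. Both Combo and both LSD1i libraries lay above both Vehicle libraries, and the region rose by 1.79 ± 0.15 (limma adjusted p = 4.31e-09). A region 4652 bases from Fpr1, a receptor for formylated peptides of bacteria (chromosome 17, 17870840 to 17872131), stood at 2.51 and 3.55 in Vehicle, 4.61 and 4.93 in Combo and 4.29 and 4.27 in LSD1i, and it rose by 1.74 ± 0.28 (limma adjusted p = 9.73e-05). The Vehicle replicates of Fpr1 lay far apart, but both were below every Combo value. Near Chil3, a chitinase-like protein of myeloid cells (chromosome 3, 106172372 to 106172871), the values were 3.75 and 4.15 in Vehicle and 5.10 and 5.10 in Combo, and the region rose by 1.15 ± 0.20 (limma adjusted p = 0.000354). In the opposite direction moved a region 93964 bases from Csf3r, the receptor for the granulocyte growth factor G-CSF (chromosome 4, 125928153 to 125930081). It fell by 0.89 ± 0.17 (limma adjusted p = 0.000626). The authors' deposited table also listed this region as closed, at -0.73, under another gene symbol.

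Genes of primary granules, the granules that promyelocytes fill with proteases and peroxidase, had 3 opened and 1 closed of 28 tested regions (3 and 1 of 28 within 50 kb, 1 and 0 with depth scaling and 1 to 3 and 0 with 1 library left out). A region 3531 bases from Mpo, the peroxidase (chromosome 11, 87789511 to 87790584), stood at 4.50 and 4.13 in Vehicle and 4.84 and 4.97 in Combo and rose by 0.59 ± 0.17 (limma adjusted p = 0.0287). A region 8961 bases from Serpinb1a, an inhibitor of neutrophil proteases (chromosome 13, 32831172 to 32835034), rose by 0.59 ± 0.14 (limma adjusted p = 0.00751). A region within Ctsc, whose product activates granule proteases (chromosome 7, 88310587 to 88311386), rose by 1.13 ± 0.28 (limma adjusted p = 0.0098). The only closed region was in Plac8 (chromosome 5, 100569016 to 100570812), which fell by 0.47 ± 0.14 (limma adjusted p = 0.0362). The authors' deposited table listed opened regions for 4 of these genes and closed ones for 0. Mpo was not called without Vehicle replicate 2, Combo replicate 2 or Combo replicate 1 (limma adjusted p = 0.24, 0.239 and 0.096) and Serpinb1a was not called without Combo replicate 1 (limma adjusted p = 0.177). Ctsc was not called without Combo replicate 2, Combo replicate 1 or Vehicle replicate 2 (limma adjusted p = 0.106, 0.07 and 0.0638) and Plac8 was not called without Combo replicate 2, Vehicle replicate 1, Combo replicate 1 or Vehicle replicate 2 (limma adjusted p = 0.255, 0.207, 0.129 and 0.0518).

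Monocyte and macrophage genes had 12 opened and 3 closed of 75 tested regions (11 and 2 of 69 within 50 kb, 4 and 0 with depth scaling and 3 to 7 and 0 to 1 with 1 library left out), or 16.0% opened, and the authors' deposited table listed 13 genes with an opened region and 1 with a closed one. A region 4957 bases from Cd14, a co-receptor for bacterial lipopolysaccharide (chromosome 18, 36719234 to 36720628), stood at 3.51 and 3.44 in Vehicle and 4.58 and 4.86 in Combo, and it rose by 1.25 ± 0.23 (limma adjusted p = 0.000438). Near Tlr2, a receptor for bacterial lipoproteins (chromosome 3, 83844895 to 83845628), the values were 4.65 and 4.67 in Vehicle and 5.44 and 5.56 in Combo, without overlap, and the region rose by 0.84 ± 0.17 (limma adjusted p = 0.00165). A region 6890 bases from Fcgr1, the high-affinity receptor for IgG (chromosome 3, 96300521 to 96301454), rose by 1.33 ± 0.32 (limma adjusted p = 0.00658), and one 5328 bases from the fractalkine receptor gene Cx3cr1 (chromosome 9, 120042887 to 120043796) rose by 0.89 ± 0.22 (limma adjusted p = 0.00807). Fcgr1 was not called without Combo replicate 2 or Vehicle replicate 2 (limma adjusted p = 0.118 and 0.0796) and Cx3cr1 was not called without Combo replicate 2 or Vehicle replicate 2 (limma adjusted p = 0.157 and 0.0513).

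Dendritic cell genes had 9 opened and 0 closed of 54 tested regions (8 and 0 of 49 within 50 kb, 7 and 0 with depth scaling and 5 to 8 and 0 with 1 library left out), or 16.7% opened. A region within Cd86, a costimulatory surface protein (chromosome 16, 36587401 to 36588705), stood at 3.62 and 3.90 in Vehicle, 5.03 and 5.12 in Combo and 5.15 and 5.42 in LSD1i, and the region rose by 1.31 ± 0.23 (limma adjusted p = 0.000241). Here the LSD1i values were at or above those of Combo. Intron 1 of Zbtb46, a transcription factor of conventional dendritic cells (chromosome 2, 181442812 to 181443706), stood at 2.72 and 2.49 in Vehicle and 4.37 and 3.99 in Combo and rose by 1.57 ± 0.28 (limma adjusted p = 0.000394). Regions of 2 further factors opened, in intron 9 of Tcf4, which plasmacytoid dendritic cells require (chromosome 18, 69585538 to 69586727), and 51 bases from Irf4, a factor of dendritic and B cells (chromosome 13, 30766624 to 30767424). Tcf4 rose by 1.37 ± 0.24 (limma adjusted p = 0.000286) and Irf4 rose by 1.33 ± 0.27 (limma adjusted p = 0.00157). Irf4 was not called without Combo replicate 2 (limma adjusted p = 0.061). The authors' deposited table listed opened regions for 6 of the 17 genes and closed ones for 0. Most regions of the neutrophil, monocyte and dendritic lists did not pass the test, and the part of a change in cell types in those that did was not tested.

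Genes of progenitors and self-renewal had 9 opened and 15 closed of 221 tested regions (6 and 13 of 166 within 50 kb, 4 and 0 with depth scaling and 1 to 6 and 7 to 10 with 1 library left out), or 4.07% opened and 6.79% closed. The median difference over the list was -0.01, against -0.09 over all tested regions. A region within Runx1, a transcription factor of blood stem cell formation (chromosome 16, 92631409 to 92632916), stood at 4.28 and 4.42 in Vehicle, 3.30 and 2.77 in Combo and 3.46 and 3.18 in LSD1i, and it fell by 1.31 ± 0.24 (limma adjusted p = 0.000515). A region within Meis1, a homeobox partner of HOXA9 (chromosome 11, 18948712 to 18949667), stood at 4.45 and 5.04 in Vehicle and 3.92 and 3.35 in Combo and fell by 1.11 ± 0.22 (limma adjusted p = 0.00106). A region within Etv6, an ETS family repressor (chromosome 6, 134094787 to 134096962), fell by 1.20 ± 0.21 (limma adjusted p = 0.000316). Combo lay below Vehicle in every library at these 3 regions. A region 39831 bases from Cdk6, a kinase of the G1 phase (chromosome 5, 3300182 to 3301728), rose by 0.75 ± 0.15 (limma adjusted p = 0.00136), so the list held both directions. Meis1 was not called without Combo replicate 2 (limma adjusted p = 0.0702) and Cdk6 was not called without Vehicle replicate 1 (limma adjusted p = 0.0802). By its own gene symbols, the authors' deposited table had opened regions for 5 genes of this list and closed ones for 2. Under other symbols it listed the regions of Runx1, Meis1 and Etv6 above as closed, at -1, -0.65 and -0.9. It listed the Cdk6 region as opened, at +0.62, also under another symbol.

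Myeloid transcription factor genes had 13 opened and 11 closed of 205 tested regions (6 and 9 of 133 within 50 kb, 4 and 0 with depth scaling and 5 to 10 and 2 to 7 with 1 library left out), and so 6.34% opened and 5.37% closed. A region 17577 bases from Gfi1, a repressor of granulocyte development that binds LSD1 (chromosome 5, 107698442 to 107699675), stood at 5.86 and 5.57 in Vehicle and 6.56 and 6.38 in Combo and rose by 0.75 ± 0.14 (limma adjusted p = 0.000612), although its difference over the local background was -0.00. A region 17988 bases from Batf, an AP-1 family factor (chromosome 12, 85726808 to 85727822), fell by 0.87 ± 0.18 (limma adjusted p = 0.00133). One 43362 bases from Fos, another AP-1 gene (chromosome 12, 85430086 to 85430861), fell by 0.90 ± 0.19 (limma adjusted p = 0.00192). Fos was not called without Combo replicate 1 or Vehicle replicate 1 (limma adjusted p = 0.096 and 0.082).

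Genes of the LSD1-CoREST-GFI1 complex had 8 opened and 4 closed of 67 tested regions (8 and 4 of 66 within 50 kb, 3 and 0 with depth scaling and 5 to 7 and 1 to 5 with 1 library left out), or 11.9% opened. The opened regions belonged to 4 of the 15 genes, and all closed ones to 1 gene. The strongest of the opened was a region 3315 bases from Gfi1b, the GFI1 paralogue of erythroid and megakaryocytic cells (chromosome 2, 28605622 to 28607204). Its signal was 3.15 and 3.22 in Vehicle, 4.90 and 4.79 in Combo and 4.72 and 4.81 in LSD1i, and it rose by 1.66 ± 0.23 (limma adjusted p = 8.82e-06). In the 6MP and CER libraries it lay between 2.53 and 3.43, within 1 log2 unit of Vehicle. A region in Gse1, which associates with the CoREST complex (chromosome 8, 120570450 to 120573013), fell by 0.79 ± 0.15 (limma adjusted p = 0.000796).

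The promoters of the drug targets showed no call. The promoter of Kdm1a (chromosome 4, 136601420 to 136603128) stood at 5.95 and 5.57 in Vehicle and 5.85 and 5.89 in Combo, a difference of 0.11 ± 0.16 (limma adjusted p = 0.741). The promoter of Fasn (chromosome 11, 120823262 to 120825126) stood at 7.41 and 7.10 in Vehicle and 7.14 and 7.16 in Combo, a difference of -0.10 ± 0.21 (limma adjusted p = 0.813). Hprt, which activates mercaptopurine (chromosome X, 52987737 to 52988844), stood at 6.11 and 6.13 in Vehicle and 5.92 and 5.87 in Combo, a difference of -0.22 ± 0.14 (limma adjusted p = 0.389), and a region 1257 bases from Hoxa9 (chromosome 6, 52221332 to 52222418) at 4.62 and 4.39 in Vehicle and 4.27 and 4.61 in Combo, a difference of -0.07 ± 0.18 (limma adjusted p = 0.865). The sign of Kdm1a turned without Vehicle replicate 2, and those of Fasn and Hoxa9 turned with depth scaling and without Vehicle replicate 1, among others. None of these regions is in the authors' deposited table for the combination. Open chromatin at a target gene does not measure whether the drug reached its protein.

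Genes of surface proteins and signalling moved in both directions. Adhesion and surface genes had 5 opened and 2 closed of 81 tested regions (5 and 2 of 77 within 50 kb, 3 and 0 with depth scaling and 3 to 5 and 0 to 2 with 1 library left out). A region 14709 bases from Cd9, a tetraspanin (chromosome 6, 125445149 to 125446066), stood at 4.75 and 4.66 in Vehicle and 5.95 and 5.96 in Combo, and it rose by 1.25 ± 0.17 (limma adjusted p = 5.98e-06). A region 13619 bases from Itgam, the integrin subunit CD11b of myeloid cells (chromosome 7, 128048688 to 128049526), stood at 3.95 and 3.90 in Vehicle and 4.87 and 4.95 in Combo and rose by 0.98 ± 0.19 (limma adjusted p = 0.000811). Within Cd44, which binds hyaluronan (chromosome 2, 102815009 to 102815943), the signal rose by 0.89 ± 0.19 (limma adjusted p = 0.00242). Genes of MAP kinase phosphatases had 6 opened and 1 closed of 54 tested regions (2 and 1 of 43 within 50 kb, 4 and 0 with depth scaling and 1 to 5 and 1 with 1 library left out). Their opened regions belonged to 2 of the 9 genes. A region 34780 bases from Dusp6, a phosphatase of ERK (chromosome 10, 99301724 to 99302657), rose by 1.34 ± 0.24 (limma adjusted p = 0.000379), and a region in Dusp2, another such phosphatase (chromosome 2, 127337772 to 127338663) stood at 6.12 and 6.21 in Vehicle and 5.31 and 5.24 in Combo and fell by 0.89 ± 0.14 (limma adjusted p = 7.29e-05). Cd44 was not called without Vehicle replicate 1 (limma adjusted p = 0.118).

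Genes of the metabolic pathways that the drugs address changed at shares near the background or a few points above it. Purine and folate genes had 6 opened and 7 closed of 88 tested regions (6 and 7 of 87 within 50 kb, 4 and 0 with depth scaling and 1 to 3 and 1 to 5 with 1 library left out), 6.82% opened and 7.95% closed. Ampd2, an AMP deaminase (chromosome 3, 108082362 to 108083426), stood at 5.95 and 6.05 in Vehicle and 4.98 and 5.07 in Combo, and it fell by 0.97 ± 0.14 (limma adjusted p = 1.74e-05). A region 16212 bases from Impdh1, which makes the guanine nucleotide precursor xanthosine monophosphate (chromosome 6, 29231750 to 29233325), fell by 0.64 ± 0.14 (limma adjusted p = 0.00296). A region in the nucleoside transporter gene Slc29a1 (chromosome 17, 45584200 to 45585672) fell by 0.57 ± 0.14 (limma adjusted p = 0.00727), and one 6834 bases from the guanine deaminase gene Gda (chromosome 19, 21383881 to 21385071) rose by 1.26 ± 0.29 (limma adjusted p = 0.00566). Fatty acid and sterol genes had 5 opened and 3 closed of 103 tested regions (5 and 3 of 91 within 50 kb, 2 and 0 with depth scaling and 3 to 4 and 0 to 2 with 1 library left out), 4.85% opened and 2.91% closed. A region 26078 bases from Elovl5, an elongase of polyunsaturated fatty acids (chromosome 9, 78009763 to 78011607), stood at 4.52 and 4.76 in Vehicle, 6.23 and 6.25 in Combo and 6.27 and 6.28 in LSD1i. The Combo and LSD1i values of Elovl5 lay within 0.05 of each other, and the region rose by 1.60 ± 0.14 (limma adjusted p = 1.24e-08). A region within Cpt1a, which brings fatty acids into mitochondria (chromosome 19, 3376689 to 3377899), rose by 0.92 ± 0.16 (limma adjusted p = 0.000371). Impdh1 was not called without Combo replicate 2 (limma adjusted p = 0.104) and Slc29a1 was not called without Combo replicate 2 or Vehicle replicate 2 (limma adjusted p = 0.151 and 0.0913). Gda was not called without Combo replicate 2 or Vehicle replicate 1 (limma adjusted p = 0.112 and 0.0502).

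Genes of stress responses and the cell cycle changed at few regions. The integrated stress response list had 6 opened and 1 closed of 82 tested regions (5 and 1 of 56 within 50 kb, 2 and 0 with depth scaling and 2 to 6 and 0 to 1 with 1 library left out), with a region 584 bases from Psat1, an enzyme of serine synthesis (chromosome 19, 15903840 to 15905229), that rose by 0.78 ± 0.17 (limma adjusted p = 0.00378). A region counted for Slc7a11, the cystine transporter, lay 106885 bases away (chromosome 3, 50605718 to 50606337) and rose by 1.37 ± 0.24 (limma adjusted p = 0.000264). The p53 target list had 1 opened and 1 closed of 78 tested regions (0 and 1 of 68 within 50 kb, 1 and 0 with depth scaling and 0 to 1 and 1 with 1 library left out), 1.28% in each direction. A region 3201 bases from Gdf15, a p53 and stress target (chromosome 8, 70635009 to 70636375), fell by 0.67 ± 0.15 (limma adjusted p = 0.0028). The cell cycle list had 3 opened and 1 closed of 92 tested regions (2 and 1 of 78 within 50 kb, 1 and 0 with depth scaling and 2 to 3 and 0 to 1 with 1 library left out), among them a region 48105 bases from Cdkn2c, the CDK inhibitor p18 (chromosome 4, 109612362 to 109613085). It stood at 3.57 and 3.65 in Vehicle, 5.55 and 5.48 in Combo and 5.15 and 5.50 in LSD1i and rose by 1.91 ± 0.19 (limma adjusted p = 8.09e-08). The interferon response list had 0 opened and 1 closed of 33 tested regions (0 and 1 of 33 within 50 kb, 0 and 0 with depth scaling and 0 and 0 to 1 with 1 library left out). Psat1 was not called without Vehicle replicate 1 (limma adjusted p = 0.0822).

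Markers of other lineages were tested as a check on the cells. Megakaryocyte genes had 0 opened and 5 closed of 25 tested regions (0 and 5 of 25 within 50 kb, 0 and 0 with depth scaling and 0 and 1 to 3 with 1 library left out), or 20% closed. A region 86 bases from Gp9, a platelet glycoprotein (chromosome 6, 87775784 to 87776788), stood at 5.71 and 5.72 in Vehicle and 4.87 and 4.99 in Combo and fell by 0.79 ± 0.14 (limma adjusted p = 0.000226). A region in Itga2b, the integrin subunit CD41 that progenitors share with megakaryocytes (chromosome 11, 102461314 to 102462125), fell by 0.74 ± 0.17 (limma adjusted p = 0.00453), and a region in its partner Itgb3 (chromosome 11, 104613646 to 104614579) fell by 0.66 ± 0.16 (limma adjusted p = 0.00664). T and NK cell genes had 1 opened and 4 closed of 39 tested regions (0 and 4 of 34 within 50 kb, 1 and 0 with depth scaling and 0 to 1 and 2 to 4 with 1 library left out), and a region 5391 bases from Cd3e, a subunit of the T cell receptor complex (chromosome 9, 44992409 to 44994031), fell by 0.70 ± 0.15 (limma adjusted p = 0.00185). B cell genes had 1 opened and 1 closed of 31 tested regions (1 and 1 of 30 within 50 kb, 1 and 0 with depth scaling and 0 to 2 and 0 to 1 with 1 library left out), and mast cell, basophil and eosinophil genes had 1 opened and 0 closed of 14 tested regions (1 and 0 of 14 within 50 kb, 0 and 0 with depth scaling and 0 to 1 and 0 with 1 library left out). Erythroid genes had 3 opened and 0 closed of 22 tested regions (1 and 0 of 17 within 50 kb, 2 and 0 with depth scaling and 1 to 3 and 0 with 1 library left out), or 13.6% opened. The opened erythroid regions all belonged to 1 of the 14 genes. Stromal and endothelial genes had 6 opened and 0 closed of 38 tested regions (3 and 0 of 21 within 50 kb, 2 and 0 with depth scaling and 1 to 4 and 0 with 1 library left out), or 15.8% opened. The opened regions with the lowest p lay 250283 bases from Cxcl12, 184153 from Pdgfra, 97313 from Kdr and 7178 from Acta2. Itga2b was not called without Combo replicate 2 or Vehicle replicate 1 (limma adjusted p = 0.151 and 0.0888) and Itgb3 was not called without Vehicle replicate 1 or Combo replicate 1 (limma adjusted p = 0.189 and 0.0839). Median summit signal over the regions of the T and NK cell list was 3.75 and 3.31 in Vehicle and 3.73 and 3.63 in Combo, and over those of the megakaryocyte list 5.10 and 4.85 in Vehicle and 4.80 and 4.89 in Combo. Over mature neutrophil regions it was 3.75 and 3.60 in Vehicle and 3.87 and 4.01 in Combo, without overlap. Over stromal and endothelial regions it was 3.82 and 3.87 in Vehicle and 4.04 and 4.23 in Combo, also without overlap. Over regions of the integrated stress response list it was 3.95 and 4.15 in Vehicle and 4.52 and 4.57 in Combo. That is the widest of these gaps between medians of levels, but it is not the change of a typical region. The median difference per region was -0.05 on the integrated stress response list. It was 0.16 on the mature neutrophil list and 0.15 on the stromal and endothelial list.

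**Figure D3:**
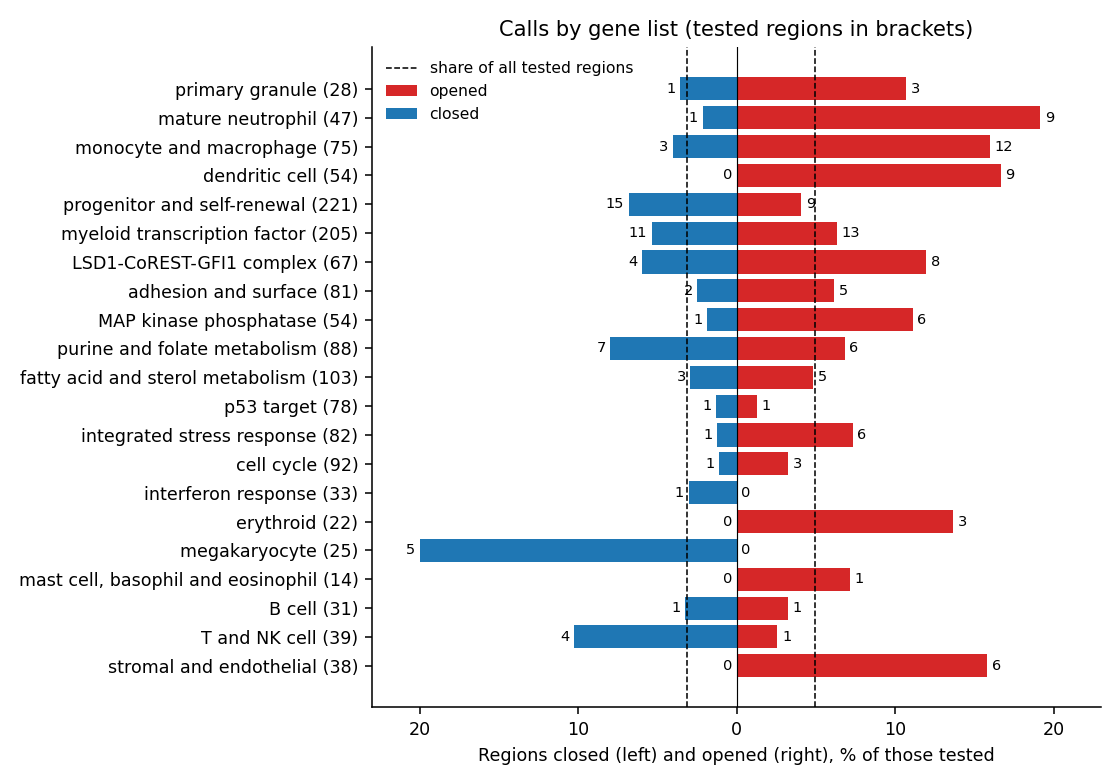
Share of the tested regions of each gene list that opened (red, right) or closed (blue, left) in Combo against Vehicle (%, horizontal axis), with the number of regions at the bar ends and the number tested in brackets. Dashed lines mark 4.96% opened and 3.11% closed over all tested regions: the mature neutrophil, dendritic cell, monocyte, stromal and erythroid lists reach 19.1%, 16.7%, 16.0%, 15.8% and 13.6% opened, and the megakaryocyte list 20% closed. The opened erythroid regions belong to 1 gene.

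The largest openings in the authors' deposited table that limma also called lay in introns, downstream of genes, between genes or, at Foxd1, by a promoter. Dock4, a guanine nucleotide exchange factor, had in intron 1 (chromosome 12, 40521928 to 40523207) a fold of +2.91 in the authors' deposited table. Its summit signal was 3.72 and 3.11 in Vehicle, 6.15 and 6.10 in Combo and 5.93 and 6.02 in LSD1i, and it rose by 2.71 ± 0.21 (limma adjusted p = 7.75e-10). Intron 2 of Dusp22, a phosphatase of JNK signalling (chromosome 13, 30669052 to 30670099), stood at 1.95 and 1.70 in Vehicle, 5.12 and 4.55 in Combo and 3.97 and 3.97 in LSD1i, and it rose by 3.01 ± 0.29 (limma adjusted p = 2.6e-08), the largest difference of any tested region. Intron 2 of Il1r1, the interleukin-1 receptor (chromosome 1, 40283840 to 40284984), stood at 2.72 and 3.04 in Vehicle and 5.17 and 5.33 in Combo, and rose by 2.37 ± 0.24 (limma adjusted p = 9.23e-08). A region 3206 bases from the forkhead factor gene Foxd1 (chromosome 13, 98350409 to 98351639) rose by 2.76 ± 0.27 (limma adjusted p = 4.06e-08), and intron 1 of Csmd1, a membrane protein that regulates complement (chromosome 8, 17323378 to 17324842), rose by 2.57 ± 0.18 (limma adjusted p = 2.17e-10). The other 5 of the 10, near Ndufa8, Tanc1, Gm49198, Gm7831 and Gm12532, rose by 2.40 to 2.66 (limma adjusted p = 1.11e-09 to 3.54e-07). In all 10, each Combo value was above each Vehicle value by 2 log2 units or more.

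The largest closings were smaller. Rnase11, a member of the RNase A family, had its promoter in a closed region (chromosome 14, 51047884 to 51050722), with 4.51 and 4.64 in Vehicle, 2.46 and 2.26 in Combo and 3.35 and 2.82 in LSD1i. It fell by 2.21 ± 0.24 (limma adjusted p = 1.85e-07), the largest fall of any tested region, against a fold of -1.94 in the authors' deposited table. Exon 3 of Usp7, a deubiquitinase (chromosome 16, 8715433 to 8716482), stood at 3.97 and 4.15 in Vehicle and 2.06 and 2.09 in Combo and fell by 1.99 ± 0.24 (limma adjusted p = 1.71e-06). A region 1619 bases from Cmklr1, the chemerin receptor (chromosome 5, 113610152 to 113610996), stood at 4.66 and 4.22 in Vehicle and 2.81 and 3.12 in Combo and fell by 1.48 ± 0.22 (limma adjusted p = 4.62e-05). The other 7, near Gm12210, Nrcam, Gm26784, Gm12802, Cacng4, Olfr978 and Btg4, fell by 1.15 to 2.12 (limma adjusted p = 5.49e-07 to 0.0316). Nrcam was not called without Combo replicate 2 or Vehicle replicate 2 (limma adjusted p = 0.347 and 0.248) and Btg4 was not called without Vehicle replicate 2 or Combo replicate 2 (limma adjusted p = 0.13 and 0.0702).

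**Figure D4:**
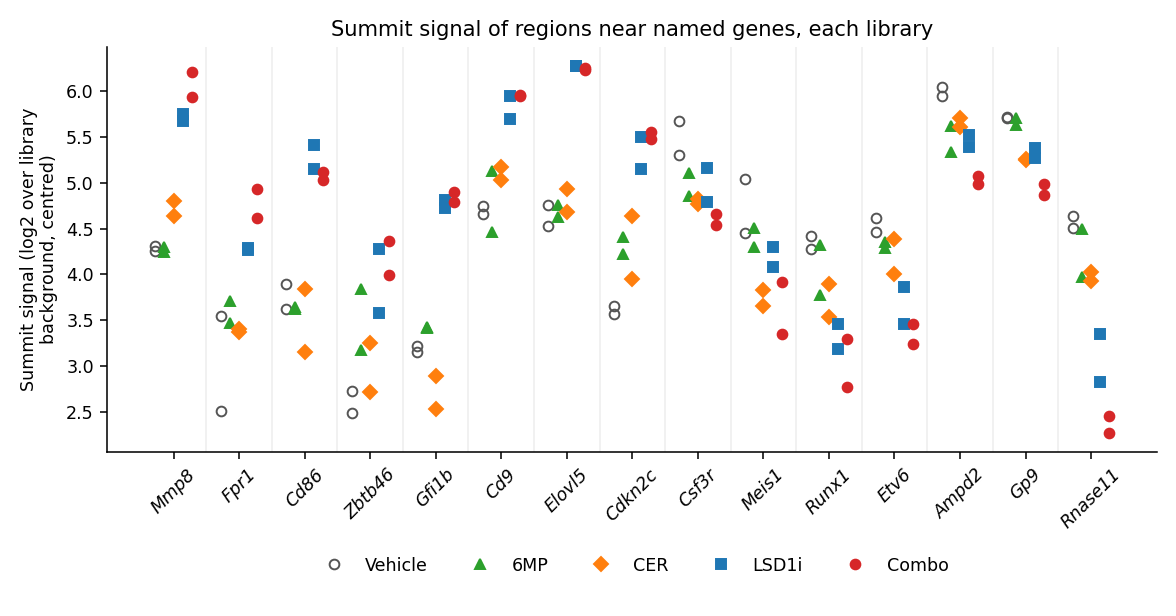
Summit signal (log2 over library background, centred, vertical axis) of each library at 15 named regions (horizontal axis, by nearest gene). Open circles are Vehicle, green triangles 6MP, orange diamonds CER, blue squares LSD1i and red circles Combo, with 2 libraries each. Combo lies above Vehicle from Mmp8 to Cdkn2c and below it from Csf3r to Rnase11, and the LSD1i values lie on the side of Combo.

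Of 9338 RefSeq promoter windows with at least 150 bases in a tested region, 106 lay in opened and 109 in closed regions. These windows did not lean to opening, whereas 4.96% of all tested regions opened and 3.11% closed. A region can hold more than 1 window, as at Mgst1, so windows and regions are different units. Mgst1, a glutathione transferase of membranes (chromosome 6, 138139857 to 138141768), stood at 2.95 and 2.96 in Vehicle, 4.94 and 4.98 in Combo and 4.44 and 4.36 in LSD1i, and its promoter rose by 2.00 ± 0.23 (limma adjusted p = 6.02e-07). Tarm1, an activating receptor on neutrophils and other myeloid cells (chromosome 7, 3502189 to 3503049), stood at 3.57 and 3.77 in Vehicle, 5.59 and 5.65 in Combo and 5.39 and 5.25 in LSD1i, and it rose by 1.96 ± 0.18 (limma adjusted p = 1.16e-08). Promoters of Ston1, St3gal6, Prkcz and Mrgpra9 rose by 1.45 to 1.60 (limma adjusted p = 0.000536 to 0.00306), and that of the lncRNA gene Gm36301 rose by 1.73 ± 0.15 (limma adjusted p = 4.31e-09), with -0.04 over the local background. On the closing side, Gm29933 (chromosome 11, 95808413 to 95809020) stood at 4.37 and 4.35 in Vehicle and 2.77 and 3.02 in Combo and fell by 1.46 ± 0.22 (limma adjusted p = 3.7e-05), and Vasn, which encodes the surface protein vasorin (chromosome 16, 4639820 to 4641984), stood at 5.21 and 5.09 in Vehicle and 3.99 and 4.09 in Combo and fell by 1.11 ± 0.16 (limma adjusted p = 2.85e-05). At these promoters both Combo libraries were on the same side of both Vehicle libraries.

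Regions with a peak in one group only were left out of the fit and are given as counts. Of 65845 regions with a peak in any of the 4 libraries, 3127 (4.75%) had one in both Combo and no Vehicle library, and 1191 (1.81%) in both Vehicle and no Combo library. Their summits were weak, with a median of 30 and 23 fragments, and 1548 and 241 had a summit at least 4 times its local background in both libraries. The authors' deposited table listed 56.3% of the gained regions as opened, but only 20.8% of the lost ones as closed. Intron 1 of Epn2, which encodes the endocytic adaptor epsin 2 (chromosome 11, 61563780 to 61565002), had 257 and 245 fragments in Combo, 10.2 and 10.04 times its local background, and no peak in either Vehicle library. Its fold in the authors' deposited table was +4.03. Intron 1 of Arhgef37, a guanine nucleotide exchange factor (chromosome 18, 61526293 to 61527226), had 268 and 238 fragments, 13.7 and 11.9 times its local background, and +3.84 in the authors' deposited table. Gained peaks near Eif5, Rilpl2 and Cdh23 were only 1.94 to 3.75 times their local background, and their folds in the authors' deposited table were +0.89, +0.60 and +0.69. The lost peaks with the highest signal, near Brd2, Gse1, Ero1a and Stard9, were 1.53 to 3.64 times their local background. The absence of a called peak does not show that a region is closed, since a summit beside a strong peak may be merged with it.

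The largest folds in the authors' deposited table lay at regions where at least 1 Vehicle library had no peak, and are named here after their values were seen. An exonic region of Ptgfrn, a regulator of a prostaglandin receptor (chromosome 3, 101056538 to 101057016), stood at +5.65 in the authors' deposited table, with 70 and 63 fragments in Combo. A region at C1qtnf3, a secreted protein of the C1q family (chromosome 15, 10952930 to 10954068), stood at +4.63 in the authors' deposited table. It had 423 and 371 fragments in Combo, 29 in Vehicle replicate 2 and no peak in Vehicle replicate 1. Intron 10 of Slc12a8, a solute carrier (chromosome 16, 33641618 to 33642686), stood at +4.28 in the authors' deposited table, with 89 and 119 fragments.

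The single drugs place these changes. At the 2119 regions opened in Combo, the median summit signal was 3.59 and 3.70 in Vehicle, 4.66 and 4.67 in Combo, 4.44 and 4.51 in LSD1i, 4.14 and 3.98 in 6MP and 3.89 and 4.06 in CER. Day0 stood at 3.79 and 3.94. Of the single-drug groups, LSD1i stood nearest to Combo. The libraries labelled 6MP differed from each other, with a median summit signal of 16.9 and 35.4 times background. Of regions with a peak in all 12 libraries, the authors' deposited table for 6MP lists 17170 as closed and 0 as opened. There the 6MP libraries stood at 5.85 and 6.12 and Vehicle at 6.07 and 5.97, so 1 lay below both Vehicle libraries and the other above both. These values are centred, which removes a shift shared by most regions. They thus cannot decide whether the libraries and that table match. No value of the 6MP libraries is read as an effect of mercaptopurine. At the 1326 closed regions the medians were 5.00 and 4.99 in Vehicle, 4.30 and 4.26 in Combo, 4.59 and 4.55 in LSD1i, 4.90 and 4.92 in 6MP and 4.76 and 4.77 in CER. Over Day0, whose levels did not enter the contrast although its spread entered the fit, opened regions lay higher by a median of 0.79 in Combo, 0.57 in LSD1i, 0.16 in the libraries labelled 6MP and 0.11 in CER, and closed ones lay at -0.60, -0.35, -0.01 and -0.13. These regions were chosen on the Combo and Vehicle libraries, which favours a larger value in Combo, so the order is a description with no test. Peaks at the 3127 gained regions were found in LSD1i replicates 1 and 2 at 47.6% and 66.2%, in 6MP at 9.34% and 12.7%, in CER at 24.1% and 9.47% and in Day0 at 23.7% and 10.8%.

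**Figure D5:**
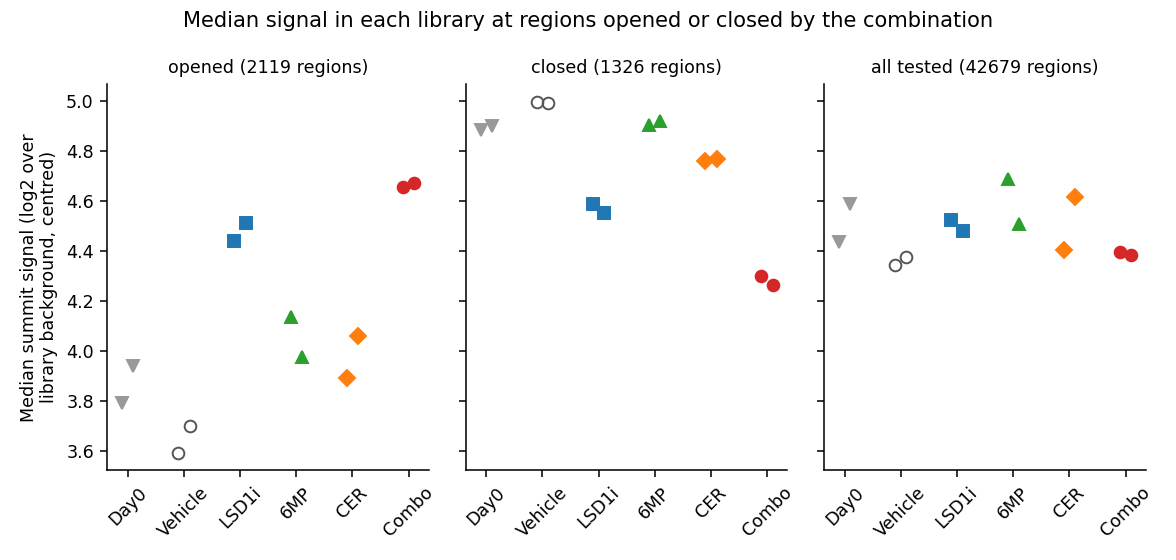
Median summit signal (log2 over library background, centred, vertical axis) in each of the 12 libraries (horizontal axis, by group) at the 2119 regions opened and the 1326 closed in Combo against Vehicle, and at all 42679 regions tested. Each point is 1 library. At opened regions Combo stands at 4.66 and 4.67, LSD1i at 4.44 and 4.51 and Vehicle at 3.59 and 3.70.

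At opened regions chosen on the LSD1i libraries instead, the combination did not stand above LSD1i. The authors' deposited table for LSD1i lists opened regions of which 1902 have a peak in all Vehicle, LSD1i and Combo libraries. There the median signal was 4.32 and 4.38 in LSD1i, 4.33 and 4.28 in Combo and 3.26 and 3.46 in Vehicle, and Combo was the higher at 716 of the 1902. At 311 of these with a log2 fold of 1 or more, LSD1i stood at 4.38 and 4.48 and Combo at 4.43 and 4.38. This choice favours LSD1i as the earlier one favours Combo.

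A direct test of Combo against LSD1i, which does not use the Vehicle libraries as a control, called few regions. Of 43671 regions with a peak in all 4 libraries, limma called 39 higher in Combo (0.0893%) and 10 lower (0.0229%), or 0.112% in all, and 4729 had an unadjusted p under 0.05. Without Combo replicate 1 the counts were 9 and 6, and without Combo replicate 2 or either LSD1i library they were 0 and 0, with 2116, 2678 and 2961 regions at an unadjusted p under 0.05. In the 4 libraries alone, with their own estimate of the spread, 1266 and 1023 were called, so the count depended on which libraries set the spread. Neither LSD1i library carries the suffix R and 1 Combo library does, and the part of this in the calls was not tested. The 5 regions with the lowest p in each direction are described among the results for a closer look.

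Promoter sequence was described by the share of windows that hold each of the motifs spelled out beside the sequences, on either strand. The GFI1 core was in 43.4% of 106 opened promoters, 26.6% of 109 closed ones and 29.6% of all 9338. The PU.1 core, which myeloid cells use in enhancers and promoters, was in 12.3%, 4.59% and 3.87%, and AP-1 in 16.0%, 7.34% and 5.26%. For C/EBP, the family of granulocyte factors, the shares were 16.0%, 12.8% and 8.35%. The ETS core was in 0.943%, 5.51% and 8.60%, NRF1 in 1.89%, 0.917% and 3.80%, and CRE in 0.943%, 2.75% and 3.32%. RUNX stood at 6.60%, 10.1% and 4.28%, GATA at 11.3%, 10.1% and 5.90%, the E-box at 9.43%, 5.51% and 10.4%, IRF at 2.83%, 0.917% and 1.46% and HOXA9-PBX at 0.943%, 0.917% and 0.278%. Base composition moved with these shares, since the median GC content was 51.3% in opened, 57.3% in closed and 61.0% in all promoters, with 5, 8 and 21 CG pairs, and its part in them was not tested. In the 32851 promoters of RefSeq the GFI1 core was in 33.2%, the PU.1 core in 3.20% and AP-1 in 7.81%. In the middle 200 bases of the windows the GFI1 core was in 31.1%, 21.1% and 21.7%. A match is a run of letters and not a bound site, and most opened regions lie outside these windows.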

How the data were processed

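ATAC-seq peak lists of 12 libraries were used, 2 biological replicates in each of 6 groups, with the authors' tables of differential regions. Per the submitters' processing notes, reads were handled with Trimmomatic 0.38, Bowtie2, SAMtools 1.9 and Picard 2.18.26 on mm10, peaks were called per library with MACS2 2.1.2, and DiffBind was used. The deposited peak lists hold, for each summit, the authors' fold over local background (a ratio), −log10 p and −log10 q, and a score. The deposited tables hold log2 folds, log2 levels, p-values and FDR of the regions that the authors called.

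The pileup of each summit was recovered from the deposited fold and −log10 p, and was whole at all summits (tolerance 0.001). Overlapping peaks were merged into regions, each with its strongest summit per library. Signal was log2 of pileup over the library's lowest background, centred on the median of 33368 regions called in all 12 libraries. Limma 3.58.1 in R 4.3.3 fitted group means over the 12 libraries to regions called in the 4 libraries compared, with a trend, and Benjamini-Hochberg adjustment at 0.05. The spread is thus shared with the other groups. The p-values and SE rest on the spread between the 2 replicates of each of the 6 groups, not of Combo and Vehicle alone. With the spread of the 4 Combo and Vehicle libraries alone, 1842 regions opened and 991 closed. Same-numbered Vehicle and Combo libraries did not deviate together (correlation -0.28 over 42679 regions). Vehicle replicate 1 and Combo replicate 2, which carry the suffix R, did (correlation 0.28). The main fit used no pairing. The block for the name suffix, given as an alternative, called 4183 regions opened and 6065 closed. The procedure was tested on simulated data.

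Named regions are, per gene list, up to 4 genes with the lowest adjusted p, the 10 opened and 10 closed regions with the largest deposited fold that limma also called, the strongest gained and lost peaks, the drug targets, and 5 regions each way between Combo and LSD1i. Not all of them are printed, and some are not reported here. Promoters and regions with the largest deposited folds were added after their values were seen. Members, lists and motifs were chosen with earlier results of these data known. Settings added after seeing the data were the signal over local background, the fit without the 6MP libraries, the limit of 4 times the local background and the limit of 50 kb. Genes, start sites and promoters came from RefSeq tables of GRCm38.p6, and the table of start sites and promoters was incomplete. Text processing used Python 3.11.15, numpy 2.4.6, pandas 2.3.3, scipy 1.17.1 and matplotlib 3.10.9.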

Additional observations from a re-analysis of the deposited data

Results flagged for a closer look

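The comparison of Combo with LSD1i tests whether the combination differed from its LSD1 inhibitor alone, and the 5 regions with the lowest p in each direction are given because that difference itself passed limma. Values are Combo minus LSD1i on the log2 summit signal, and regions are named by the nearest gene. A region near Dusp2, other than the one that fell against Vehicle, lay 1.63 higher in Combo (limma adjusted p = 0.0144), and one near Inf2, which encodes a formin, lay 0.99 higher (limma adjusted p = 0.0144). Lgmn, which encodes the lysosomal protease legumain, stood at 1.12 (limma adjusted p = 0.017). Adgrl2, an adhesion receptor gene, stood at 0.97 and Naip2, a sensor of bacterial proteins, at 1.07 (limma adjusted p = 0.0179 for both). Lower in Combo were Gng7, a G protein subunit gene, at -1.21 (limma adjusted p = 0.0179), and Acad10, an acyl-CoA dehydrogenase family gene, at -0.83 (limma adjusted p = 0.0278). Sp4 stood at -0.98, Zbtb7c at -1.26 and Slit1 at -1.15 (limma adjusted p = 0.0304 for each). All 10 calls were lost without Combo replicate 2 or either LSD1i replicate, and 5 were lost without Combo replicate 1. All 10 were also lost over local background, 8 with depth scaling and 4 with uncalled peaks at the smallest pileup. Against Vehicle, limma also called Lgmn, Adgrl2 and Naip2 opened and Gng7, Acad10 and Zbtb7c closed, and it did not call Dusp2, Inf2, Sp4 or Slit1.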

How the results depend on the processing

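No count of calls was free of the processing. For Combo against Vehicle, 2119 opened and 1326 closed regions became 1200 and 35 with depth scaling, 4183 and 6065 with the name suffix as a block, and 113 and 14 over local background. Without the 6MP libraries, 2272 closed. Leaving out 1 of the 4 libraries gave 995 to 1830 opened and 441 to 926 closed. The replicate block gave 1936 and 974. Same-numbered libraries deviated in opposite directions, and the crossed pairing is the name suffix block already given. For Combo against LSD1i, 39 and 10 became 1266 and 1023 in the 4 libraries alone, 1285 and 986 with the replicate block, 143 and 45 without the 6MP libraries, 138 and 0 with depth scaling, 60 and 62 with uncalled peaks at the smallest pileup, and 2 and 1 over local background. Centring by intensity gave 101 higher, and leaving out 1 library gave 0 to 9 and 0 to 6. The name suffix block was not run there, since neither LSD1i library has the suffix. Gained and lost regions numbered 3127 and 1191, 1548 and 241 at 4 times the local background, and 4694 to 5738 and 2252 to 4033 with 1 library left out. The authors' deposited table held 3303 opened and 267 closed at a log2 fold of 1 or more, and 562 closed at an FDR of 0.01. Except where fewer libraries or another estimate of the spread made the change, the cause was not tested.

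Of 102 named regions, depth scaling kept the call or its absence at 53 and turned the sign at 2, and the local background kept 10 and turned 6. Over local background, Gfi1 stood at -0.00, Tcf7 at 0.08, Cxcl12 at -0.03, Gm36301 at -0.04, Fasn at 0.12 and Hoxa9 at 0.09. With depth scaling, Fasn stood at 0.12 and Hoxa9 at 0.16, and centring by intensity put Fasn at 0.06. Leaving out 1 library, Kdm1a ranged from -0.08 (without Vehicle replicate 2) to 0.30, Fasn from -0.26 to 0.05 (without Vehicle replicate 1) and Hoxa9 from -0.23 to 0.10 (without Combo replicate 1), with 0.05 for Hoxa9 without Vehicle replicate 1. Depth limits regions near the smallest summit of 13 or 14 fragments, where a missing peak is no measure of closed chromatin.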
